A study of Mus musculus with 12 samples.

Results

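The baseline difference between the genotypes was read from 6 of the 12 liver RNA-seq libraries of the series, 3 from untreated wild-type mice and 3 from untreated mice lacking Rela and Stat3 in hepatocytes (RelaΔhepStat3Δhep, labelled Rela and Stat3 knockout). These 6 libraries were chosen by their labels and not by a measured value. The mice were on a C57BL/6 background, aged 5 to 7 weeks in the study's methods, and drank water in place of dextran sodium sulfate. Cre under the albumin promoter deletes both floxed genes in the knockouts, whereas the mice called wild type are Cre-negative littermates that carry the same Rela fl/fl and Stat3 fl/fl alleles. Deletion is therefore limited to cells in which the albumin promoter is active, and Kupffer, endothelial, stellate and blood cells of the same tissue keep both genes. Neither the sex of each mouse nor the hour at which livers were taken is given. Of the 51609 gene rows of the table, 26547 lie on autosomes in the GENCODE vM1 annotation of mm9, and 13853 of these had enough counts to be tested.

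Rela is the transactivating subunit of the most common NF-kB dimer, and Stat3 is the factor through which interleukin 6 and related cytokines act on hepatocytes. Both are held inactive in the cytoplasm until a cytokine or microbial product is sensed, and together they drive the hepatic acute phase response. The untreated liver is also among the most strongly rhythmic tissues. There, the activators Clock and Arntl (Bmal1) switch on Per, Cry and Nr1d genes, whose products then repress the same loop.

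The 6 libraries held between 65879529 and 76526853 estimated counts each, and levels are given as CPM, the share of a gene in its library scaled by the trimmed mean of M values (TMM). Wild-type library 3 stood apart from the other 5 libraries. Its Xist level was 1143 CPM, against 0.191 to 29.0 in the others, and its 4 Y-linked transcripts summed to 30.1 CPM against 175 to 241. It held the lowest value of the 6 in 23.5% of the autosomal genes tested, as did knockout library 3, which had the 29.0 CPM of Xist. For this reason, the counts of genes past the threshold and the genes that passed it are given with and without wild-type library 3, as are other values that it moved. Hepatocyte markers were abundant in every library, with the 5 that have a row summing to 126291 to 142702 CPM in wild-type and 140053 to 155291 CPM in knockout libraries. The edgeR and DESeq2 p-values rest on a spread between mice estimated over all 4 groups of the series, and an exact permutation test of 3 against 3 cannot give a two-sided p below 0.1.

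The targeted genes were examined first. Rela was at 45.5, 54.5 and 41.2 CPM in wild-type libraries 1 to 3 and at 42.8, 43.8 and 51.4 CPM in knockout libraries 1 to 3, a log2 fold change of -0.03 (standard error, SE, 0.19, edgeR adjusted p = 0.961, exact permutation p = 0.9). Stat3 stood at 45.7, 138 and 87.6 CPM in wild type and at a narrow 45.9, 46.7 and 49.7 CPM in the knockouts (log2 fold change -0.93, SE 0.55, edgeR adjusted p = 0.542, exact permutation p = 0.4). Wild-type library 1 lay at the knockout level for Stat3, so the groups overlapped for both genes. A count over the whole gene does not show which exons were read, and the gene table therefore does not test the deletion.

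By the edgeR quasi-likelihood test, fitted over all 12 libraries of the series, 10 of the 13853 autosomal genes (0.0722%) passed an adjusted p of 0.05, 6 higher (0.0433%) and 4 lower (0.0289%) in the knockouts. Without wild-type library 3, 2 genes passed (0.0144%), Nr1d1 and Sparc, both lower and both among the 10. At an unadjusted p under 0.05 there were 697 higher (5.03%) and 960 lower genes (6.93%). Without that library these were 561 (4.05%) and 768 (5.54%). The DESeq2 Wald test passed 290 genes (2.38% of those with an adjusted p), 120 higher (0.986%) and 170 lower (1.40%). Without wild-type library 3, DESeq2 passed 157 (1.10%), 78 higher (0.547%) and 79 lower (0.554%), 118 of them shared with the full set. All 10 genes of the edgeR test were among the DESeq2 genes in both cases. The 3 knockout libraries lay entirely above the 3 wild-type libraries in 1290 genes (9.31%) and entirely below in 1647 (11.9%), together 21.2%. The log2 fold change was positive for 47.3% of autosomal genes, and its median was -0.02 (-0.04 without wild-type library 3).

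**Figure D1:**
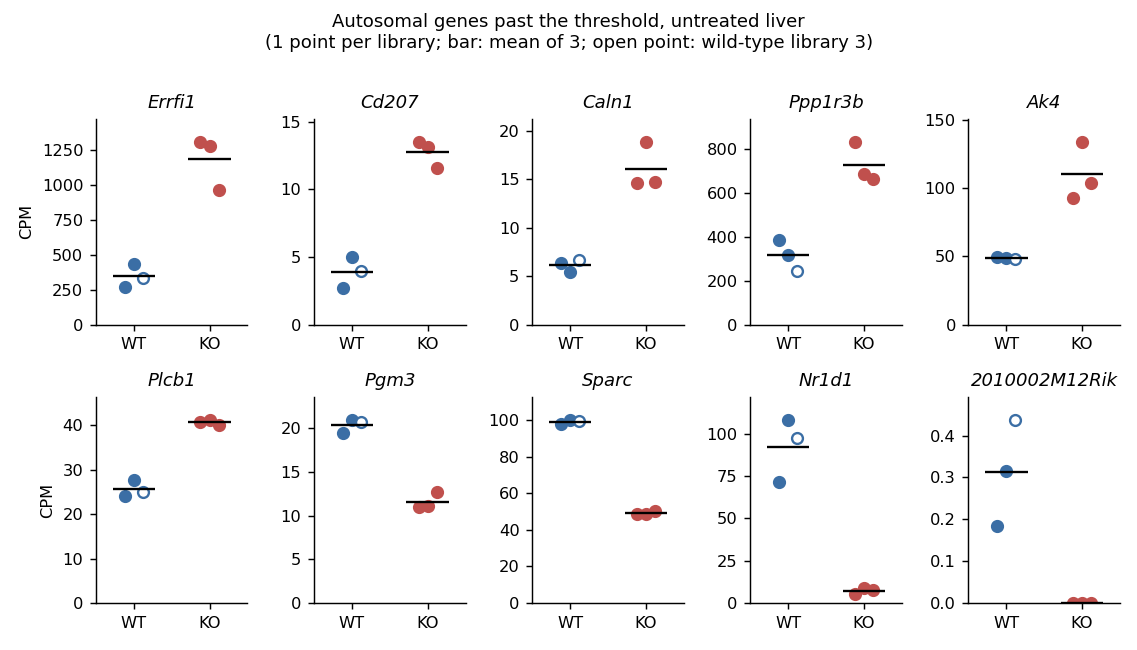
CPM of the 10 autosomal genes past the edgeR threshold in the 6 untreated libraries, 1 point per library, with the group mean as a bar and wild-type library 3 as an open point. In each panel the 3 knockout libraries lie wholly above (Errfi1 to Plcb1) or wholly below (Pgm3 to 2010002M12Rik) the 3 wild-type libraries.

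Nr1d1 encodes REV-ERBα, the haem-binding nuclear receptor that represses Arntl and many metabolic genes in a daily rhythm (chromosome 11, 98629246 to 98636647, minus strand, mm9). It was at 71.5, 108 and 97.6 CPM in the wild-type libraries and at 4.98, 8.61 and 7.45 CPM in the knockouts. Nr1d1 was thus 13.2-fold lower (92.5 ± 18.9 against 7.01 ± 1.85 CPM, mean ± SD, n = 3, log2 fold change -3.72, SE 0.30, edgeR adjusted p = 0.000362). Leaving out wild-type library 3 gave -3.68 (edgeR adjusted p = 0.00365). The lowest wild-type library (71.5 CPM) lay far above the highest knockout library (8.61 CPM).

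Sparc encodes a collagen-binding matricellular glycoprotein made mainly by mesenchymal and endothelial cells (chromosome 11, 55208002 to 55233582, minus strand). Its levels were 98, 100.1 and 99.4 CPM in wild type and 48.9, 48.7 and 50.5 CPM in the knockouts. Within each genotype the 3 mice were nearly identical (SD 1.08 and 0.974 CPM), and the level fell 2.01-fold (log2 fold change -1.01, SE 0.11, edgeR adjusted p = 0.00324, and 0.0226 without wild-type library 3). Cells of these types keep Rela and Stat3 in the knockouts. In bulk tissue, fewer cells of a type and less RNA per cell cannot be told apart.

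The other genes that fell were Pgm3 and 2010002M12Rik. Pgm3, a mutase of the hexosamine pathway that supplies UDP-N-acetylglucosamine for glycosylation (chromosome 9, 86446083 to 86465449, minus strand), was at 19.5, 21 and 20.8 CPM in wild type and 11, 11.1 and 12.7 CPM in the knockouts (log2 fold change -0.81, SE 0.12, edgeR adjusted p = 0.0221). 2010002M12Rik, now named Ifit1bl2 and lying in the interferon-inducible Ifit cluster (chromosome 19, 34691539 to 34715233, minus strand), had 14, 23 and 29 counts in the wild-type libraries and 0 in all 3 knockout libraries. Against a floor of 3 counts per library this is at least 7.69-fold lower (edgeR adjusted p = 0.0203). The Ifit genes are close paralogs, so the division of reads among them is uncertain, and the levels were under 0.5 CPM in all libraries.

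Among the genes that rose, Errfi1 had the largest fold change. It encodes MIG6, a feedback inhibitor that binds the EGF receptor kinase (chromosome 4, 150228028 to 150243001, plus strand). The wild-type libraries held 271, 438 and 336 CPM and the knockouts 1306, 1280.0 and 959 CPM, a 3.4-fold difference (log2 fold change 1.76, SE 0.25, edgeR adjusted p = 0.0213). Without wild-type library 3 the log2 fold change was 1.74 and the edgeR adjusted p 0.13. The fold change of Errfi1 was thus close to that with all libraries, but the adjusted p no longer passed the threshold.

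Ppp1r3b, the hepatic subunit that brings protein phosphatase 1 to glycogen (chromosome 8, 36438795 to 36451178, plus strand), was at 387, 319 and 247 CPM in wild type and 834, 687 and 663 CPM in the knockouts (log2 fold change 1.20, SE 0.19, edgeR adjusted p = 0.0398). Ak4, a mitochondrial adenylate kinase (chromosome 4, 101091882 to 101140376, plus strand), held 49.7, 48.6 and 48.1 CPM against 92.4, 134 and 104 CPM (log2 fold change 1.17, SE 0.14, edgeR adjusted p = 0.00665). For Ak4 the 3 wild-type mice lay within a narrow range, and each knockout library was well above it.

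Cd207 encodes langerin, a C-type lectin best known from Langerhans cells and other dendritic cells (chromosome 6, 83621201 to 83627851, minus strand). Its level was 2.72, 5.04 and 4 CPM in wild type and 13.5, 13.1 and 11.6 CPM in the knockouts (log2 fold change 1.70, SE 0.20, edgeR adjusted p = 0.00704). Plcb1, a phospholipase C that acts below G-protein-coupled receptors (chromosome 2, 134611895 to 135300994, plus strand), moved least of the 10, from 24, 27.8 and 25.1 CPM to 40.8, 41.2 and 40.03 CPM (log2 fold change 0.67, SE 0.10, edgeR adjusted p = 0.0398). Caln1, which encodes a neuronal calcium-binding protein of the calmodulin family (chromosome 5, 130845346 to 131316515, plus strand), was at 6.38, 5.47 and 6.67 CPM and 14.6, 18.8 and 14.7 CPM (log2 fold change 1.38, SE 0.18, edgeR adjusted p = 0.0167). Without wild-type library 3, the log2 fold changes of Ak4, Cd207, Caln1, Ppp1r3b, Plcb1 and Pgm3 were 1.16, 1.71, 1.44, 1.05, 0.65 and -0.80, and their edgeR adjusted p-values lay between 0.0644 and 0.143. That of 2010002M12Rik was 0.0644.

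The core clock list held 17 tested genes, and Nr1d1 was its only member past the edgeR threshold. Of the 17, 13 had a positive log2 fold change, against 47.3% of all autosomal genes (median 0.22, and 0.13 without wild-type library 3). In 4 the knockout libraries lay wholly above wild type (9.31% of all autosomal genes) and in 1 wholly below (11.9%). DESeq2 passed 3 higher members (Cry1, Per1 and Per2, against 0.986% of all genes) and 1 lower (Nr1d1, against 1.40%). Without wild-type library 3 it passed 1 higher (Cry1, against 0.547%) and 1 lower (0.554%). The clock output list, genes driven by the loop, had a median of 0.91 over 10 members (0.82 without that library), with 5 of the 10 wholly above wild type (9.31% of all genes) and 1 wholly below (11.9%), and none past the edgeR threshold.

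Nr1d2, the paralog of Nr1d1 with the same repressor role, was at 115, 104 and 120.1 CPM in wild type and 39.4, 105 and 48.5 CPM in the knockouts (edgeR adjusted p = 0.397). Knockout library 2 lay at the wild-type level, so Nr1d2 overlapped where Nr1d1 did not. Dbp, a PAR-domain activator whose rhythm follows that of the Clock and Arntl dimer, was at 29.4, 26.9 and 13.6 CPM and 2.05, 8.98 and 3.47 CPM (log2 fold change -2.27, edgeR adjusted p = 0.329, and -3.08 on the log2 scale without knockout library 2). Every knockout library lay below every wild-type library for Dbp, yet the spread within the groups was wide.

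Among the Cry and Per repressors, Cry1, Per1 and Per2 had the opposite sign and none passed the edgeR threshold, while the groups overlapped for Per3. Cry1, which blocks the Clock and Arntl dimer, was at 24.5, 14.8 and 19.1 CPM in wild type and 59.6, 47.9 and 51.3 CPM in the knockouts (log2 fold change 1.44, SE 0.35, edgeR adjusted p = 0.153, DESeq2 adjusted p = 0.0026). Per1 held 10.4, 4.85 and 12.3 CPM and 28.6, 54.8 and 44.7 CPM (log2 fold change 2.21, edgeR adjusted p = 0.252, DESeq2 adjusted p = 0.0353). Per2 held 27.9, 22.4 and 17 CPM and 30.4, 62.8 and 68.7 CPM (log2 fold change 1.27, edgeR adjusted p = 0.311, DESeq2 adjusted p = 0.0446). All 3 genes had knockout libraries wholly above wild type, but only Cry1 passed DESeq2 without wild-type library 3 (adjusted p = 0.0256, against 0.0599 for Per1 and 0.224 for Per2). Arntl, the activator that Nr1d1 represses, was at 13.7, 14.3 and 17.2 CPM and 31.9, 14.3 and 25.3 CPM, and knockout library 2 fell within the wild-type range.

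The promoters of Nr1d1, Cry1 and Per1 are shown because Nr1d1 lay wholly below wild type and the other two wholly above. The sequences are the 250 bases before the RefSeq start in GRCm38.p6, read along the gene's strand, with the E-box letters CACGTG (a palindrome, the same on both strands) in capitals. Nr1d1 is at chr11:98775378-98775627 (minus strand), Cry1 at chr10:85185055-85185304 (minus strand) and Per1 at chr11:69098699-69098948 (plus strand, the first of 2 starts in the table).
Nr1d1: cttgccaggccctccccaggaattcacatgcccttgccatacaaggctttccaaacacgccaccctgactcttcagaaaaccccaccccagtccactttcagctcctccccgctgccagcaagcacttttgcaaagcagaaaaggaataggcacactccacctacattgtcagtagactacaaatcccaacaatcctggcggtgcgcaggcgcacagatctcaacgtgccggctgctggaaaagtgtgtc
Cry1: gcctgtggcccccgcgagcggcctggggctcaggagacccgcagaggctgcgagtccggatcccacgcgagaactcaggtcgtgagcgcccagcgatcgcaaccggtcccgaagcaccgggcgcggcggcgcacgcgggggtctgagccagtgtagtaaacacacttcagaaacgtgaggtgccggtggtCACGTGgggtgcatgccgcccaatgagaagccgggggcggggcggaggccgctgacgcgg
Per1: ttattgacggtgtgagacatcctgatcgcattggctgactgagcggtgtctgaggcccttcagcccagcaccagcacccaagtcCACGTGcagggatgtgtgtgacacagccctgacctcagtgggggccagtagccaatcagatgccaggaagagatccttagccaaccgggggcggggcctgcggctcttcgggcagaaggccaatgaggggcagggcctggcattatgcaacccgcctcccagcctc
Cry1 has 1 match starting 60 bases before its start and Per1 has 1 at 166 bases, while these letters are not in the Nr1d1 window. Of 13 core clock members with a promoter in the table, 4 hold the motif in at least 1 of their windows. Counted by single window, 6.02% of all 32851 promoter windows of that length hold it. A gene with several starts has more windows, so these shares cannot be compared directly. A match is a description and not a site.

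**Figure D2:**
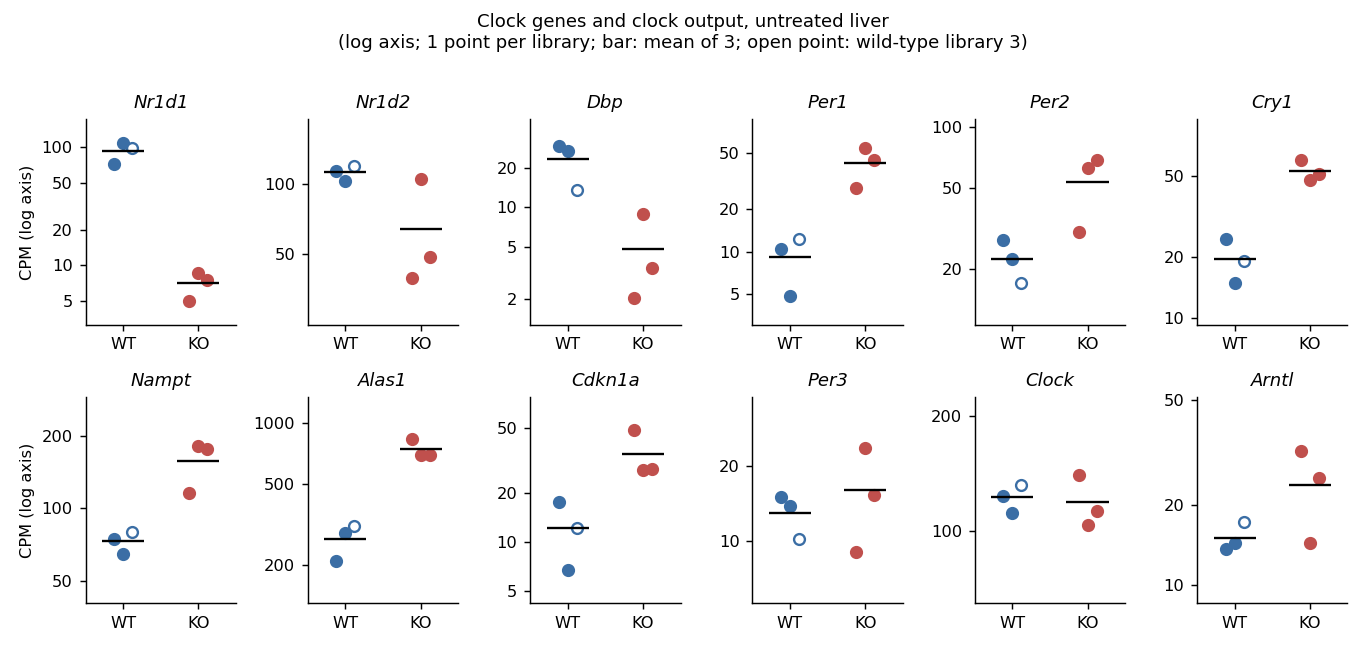
CPM on a log axis for 12 clock and clock output genes in the 6 untreated libraries, 1 point per library, bars at group means, wild-type library 3 open. Nr1d1 and Dbp are lower in each knockout library, Per1, Per2, Cry1, Nampt, Alas1 and Cdkn1a are higher in each, and the groups overlap for Nr1d2, Per3, Clock and Arntl.

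Among clock output genes, Nampt, the rate-limiting enzyme of NAD salvage, had the smallest p. It was at 74.3, 64.8 and 80.01 CPM in wild type and 116, 181 and 176 CPM in the knockouts (log2 fold change 1.11, SE 0.19, edgeR adjusted p = 0.0727, DESeq2 adjusted p = 3.3e-05, and 0.000264 without wild-type library 3). Alas1, the rate-limiting enzyme of hepatic haem synthesis, held 208, 289 and 312 CPM and 839.6, 697 and 693 CPM (log2 fold change 1.46, edgeR adjusted p = 0.153, DESeq2 adjusted p = 0.00281). Neither passed the edgeR threshold, and both passed DESeq2 with and without that library.

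Cdkn1a, the p21 inhibitor of cyclin-dependent kinases, was at 17.5, 6.79 and 12.3 CPM and 48.3, 27.5 and 28.1 CPM (log2 fold change 1.51, edgeR adjusted p = 0.31, DESeq2 adjusted p = 0.0256, and 0.0959 without wild-type library 3). Usp2, a deubiquitinase with a strong hepatic rhythm that was named after its values were seen, held 29.2, 8.42 and 12.6 CPM and 32.8, 73.5 and 48.1 CPM (edgeR adjusted p = 0.354). Hlf, a PAR-domain factor like Dbp, held 67.5, 48.9 and 56.2 CPM and 69.7, 109 and 79.8 CPM (edgeR adjusted p = 0.314), and so did not share the direction of Dbp. In liver these genes follow the time of day, and the hour of collection of each mouse is not given.

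The cell cycle list had 36 tested members, of which 30 had a negative log2 fold change. Its median was -0.60 (-0.64 without wild-type library 3), against -0.02 over all autosomal genes. In 19 of the 36 the knockout libraries lay wholly below wild type (11.9% of all autosomal genes), and in 4 wholly above (9.31%). No member passed the edgeR threshold, while 18 had an unadjusted p under 0.05 as lower (6.93% of all genes) and 3 as higher (5.03%). These were 14 and 2 without wild-type library 3 (5.54% and 4.05% of all genes). DESeq2 passed 12 lower members (1.40% of all genes) and 1 higher (0.986%), Cdkn1a. Without that library it passed 4 lower (0.554%) and 0 higher (0.547%).

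Cdk1, the kinase that drives entry into mitosis, was at 4.33, 3.84 and 6.64 CPM in wild type and 1.37, 1.37 and 1.36 CPM in the knockouts (log2 fold change -1.85, SE 0.31, edgeR adjusted p = 0.0649, and -1.58 on the log2 scale without wild-type library 3). Its partner cyclin B1, encoded by Ccnb1, held 2.38, 2.05 and 8.21 CPM and 0.306, 0.29 and 0.391 CPM (log2 fold change -3.67, edgeR adjusted p = 0.074, and -2.75 without that library). Cdc20, the activator of the anaphase-promoting complex, held 3.34, 4.77 and 9.55 CPM and 0.864, 0.497 and 0.796 CPM (log2 fold change -3.03, edgeR adjusted p = 0.0649, and -2.49 without it). In all 3 genes wild-type library 3 was the highest of the 6, and libraries 1 and 2 still lay above every knockout library.

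Hmmr and Cenpf, a spindle protein and a kinetochore protein outside the list, were lower in each knockout library. Hmmr was at 3.33, 3.35 and 11.7 CPM and 0.399, 0.704 and 0.648 CPM (log2 fold change -3.39, edgeR adjusted p = 0.139, and -2.51 on the log2 scale without wild-type library 3). Cenpf was at 4.12, 4.15 and 14.3 CPM and 1.01, 0.717 and 1.24 CPM (log2 fold change -2.92, edgeR adjusted p = 0.115, and -2.06 without that library). Mki67, the usual label of dividing cells, held 13.6, 13.4 and 28.3 CPM and 6.46, 6.9 and 9.26 CPM (edgeR adjusted p = 0.163, DESeq2 adjusted p = 0.0128, and 0.215 without wild-type library 3).

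Mcm6, a subunit of the replicative helicase, was at 11, 16.2 and 15.6 CPM and 7.1, 5.81 and 6.41 CPM (log2 fold change -1.15, edgeR adjusted p = 0.103, DESeq2 adjusted p = 0.00251). Ccna2, the cyclin of S phase and G2, held 3.87, 2.88 and 7.66 CPM and 1.78, 1.7 and 1.73 CPM (edgeR adjusted p = 0.153), and Cdca8, a subunit of the chromosomal passenger complex, 1.72, 1.27 and 2.61 CPM and 0.545, 0.428 and 0.769 CPM (edgeR adjusted p = 0.137). The mitotic genes were at a few CPM in wild type and often below 1 CPM in the knockouts.

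Promoters of the leading mitotic genes are shown because these genes were lower together. Again the 250 bases before the RefSeq start in GRCm38.p6 are given along the gene's strand. Capitals mark the CCAAT box (CCAAT, or ATTGG on the other strand) and the cell cycle homology region (TTTGAA, or TTCAAA on the other strand). Ccnb1 is at chr13:100786487-100786736 (minus strand), Cdc20 at chr4:118437344-118437593 (minus strand) and Cdk1 at chr10:69352913-69353162 (minus strand).
Ccnb1: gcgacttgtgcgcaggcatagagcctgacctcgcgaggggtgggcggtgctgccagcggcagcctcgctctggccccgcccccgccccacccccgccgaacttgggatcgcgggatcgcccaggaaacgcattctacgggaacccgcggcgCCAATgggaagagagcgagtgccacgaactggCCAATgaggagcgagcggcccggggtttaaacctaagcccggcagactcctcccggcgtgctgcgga
Cdc20: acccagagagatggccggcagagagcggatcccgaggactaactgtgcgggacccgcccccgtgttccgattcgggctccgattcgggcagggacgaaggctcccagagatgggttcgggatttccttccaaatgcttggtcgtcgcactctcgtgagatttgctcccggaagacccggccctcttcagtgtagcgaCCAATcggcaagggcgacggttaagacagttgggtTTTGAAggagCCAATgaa
Cdk1: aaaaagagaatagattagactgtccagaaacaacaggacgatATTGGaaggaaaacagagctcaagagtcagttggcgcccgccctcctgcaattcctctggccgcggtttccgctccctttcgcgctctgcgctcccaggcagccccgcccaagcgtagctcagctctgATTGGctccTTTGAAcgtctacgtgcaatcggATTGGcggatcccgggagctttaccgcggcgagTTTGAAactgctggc
Ccnb1 has 2 CCAAT matches and none of the other motif, Cdc20 has 2 and 1, and Cdk1 has 3 and 2. Of 30 cell cycle members with a promoter, 24 hold CCAAT in at least 1 of their windows, and 6 hold TTTGAA. Counted by single window, 33.8% of all windows hold CCAAT and 16.0% hold TTTGAA. Shares by gene and by window cannot be compared directly.

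The collagen and matrix list, with 37 tested genes, had a median log2 fold change of -0.58 (-0.67 without wild-type library 3). Knockout libraries lay wholly below wild type in 17 members (11.9% of all autosomal genes) and wholly above in 1 (9.31%). Sparc, described above, passed the edgeR threshold, and 15 members had an unadjusted p under 0.05 as lower (6.93% of all genes) and 1 as higher (5.03%). DESeq2 passed 7 as lower (1.40% of all genes), and 9 without wild-type library 3 (0.554%). Unlike the mitotic genes, Eln, Col3a1, Col4a1 and Col4a2 were highest in wild-type library 2.

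Col4a1 and Col4a2, which encode the paired chains of basement membrane collagen IV from neighbouring genes, were close to each other. Col4a1 was at 78.1, 81.5 and 69.1 CPM in wild type and 36.2, 34.6 and 35.3 CPM in the knockouts (log2 fold change -1.11, SE 0.24, edgeR adjusted p = 0.115). Col4a2 was at 41.3, 47.6 and 38.3 CPM and 20.9, 18.2 and 19.9 CPM (log2 fold change -1.11, SE 0.19, edgeR adjusted p = 0.074). Both passed DESeq2 with all libraries (adjusted p = 0.00265 and 0.000133) and without wild-type library 3 (0.0156 and 0.00168).

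Eln, elastin, had the most negative fold change of the list, at 4.18, 12.2 and 4.16 CPM and 1.12, 1.1 and 0.918 CPM (log2 fold change -2.71, edgeR adjusted p = 0.074, and -1.99 on the log2 scale without wild-type library 2). Lox, the enzyme that crosslinks elastin and collagen, was at 1.1, 1.45 and 0.784 CPM and 0.385, 0.152 and 0.324 CPM (edgeR adjusted p = 0.137), and Mmp2, a gelatinase, at 4.75, 4.4 and 3.36 CPM and 2.27, 1.08 and 1.46 CPM (edgeR adjusted p = 0.155). The fibrillar collagen genes, named after their values were seen, differed in overlap. Col3a1 was at 78.6, 101 and 67.2 CPM and 36.4, 28.9 and 22.6 CPM (edgeR adjusted p = 0.171), whereas Col1a1 was at 22.4, 28.7 and 9.96 CPM and 10.2, 8.43 and 6.48 CPM and overlapped through wild-type library 3 (edgeR adjusted p = 0.405).

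**Figure D3:**
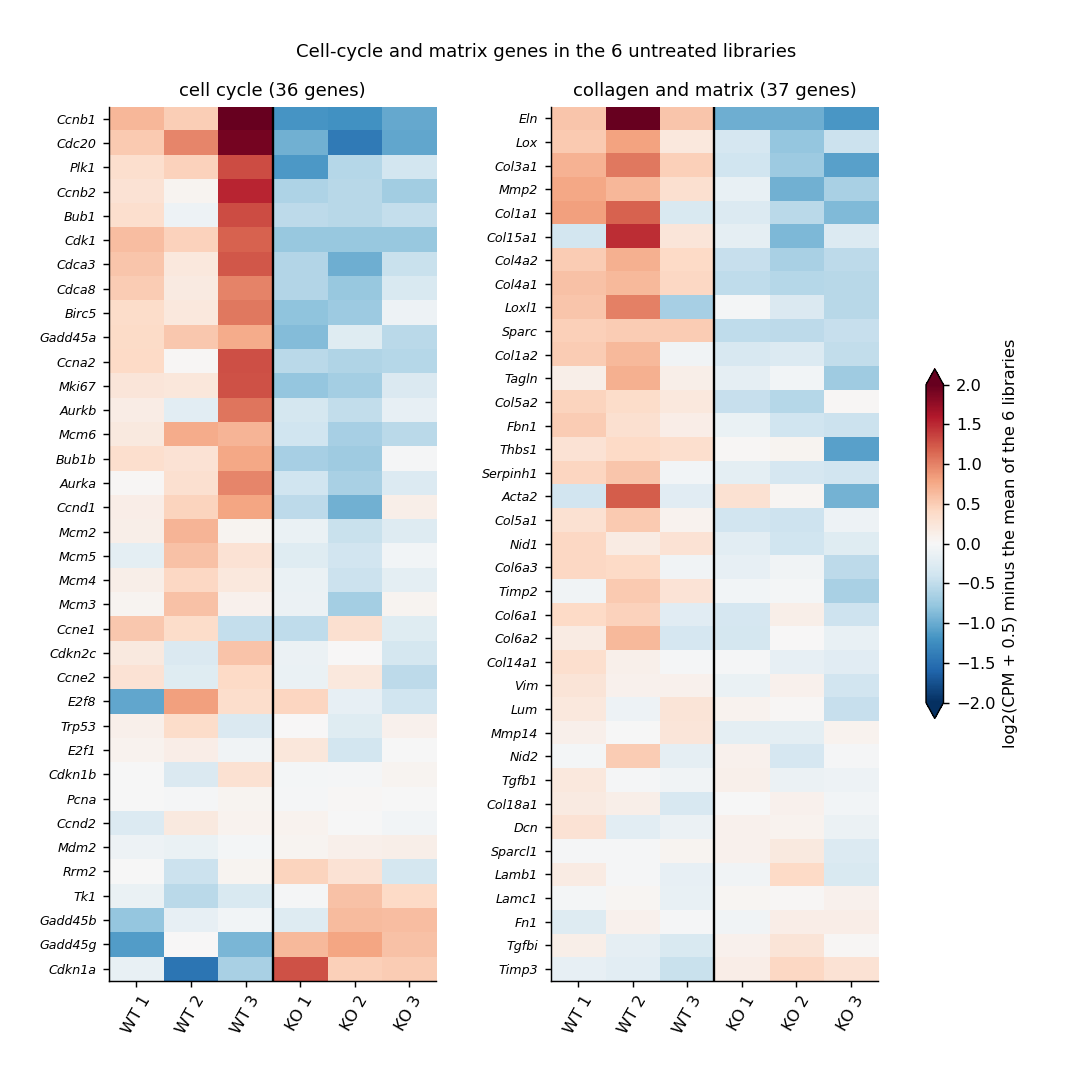
Levels of the tested autosomal cell cycle (36) and collagen and matrix (37) genes in the 6 untreated libraries, as log2(CPM + 0.5) minus the mean over the 6 libraries, red above and blue below that mean, ordered by fold change. The upper rows of both panels are blue in all 3 knockout libraries, and wild-type library 3 is the reddest column for mitotic genes but not for matrix genes.

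Markers of the other liver cells were compared beside these lists. The stellate cell and fibroblast markers summed to 358 to 462 CPM in wild-type and 361 to 411 CPM in knockout libraries, the sinusoidal endothelial markers to 347 to 404 CPM in wild-type and 324 to 366 CPM in knockout libraries and the Kupffer cell markers to 247 to 508 CPM in wild-type and 294 to 325 CPM in knockout libraries. The ranges overlapped in each of these 3 cell types. Cholangiocyte markers summed to 6.06 to 9.06 CPM in wild-type and 9.66 to 14.5 CPM in knockout libraries, which did not overlap, although each member (Krt19, Krt7, Epcam, Sox9 and Cftr) overlapped on its own. Single members did not all overlap, as Lrat, the retinol-esterifying enzyme of stellate cells, was at 63.9, 44.3 and 36 CPM and 24.99, 31.9 and 29.8 CPM (log2 fold change -0.73, edgeR adjusted p = 0.314). Of the tested members, 2 of 6 stellate, 2 of 7 endothelial and 0 of 6 Kupffer cell markers lay wholly below wild type (11.9% of all genes). None of these lay wholly above (9.31% of all genes). The part of cell composition in the matrix and cell cycle values was not tested.

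White blood cell markers were low. Of the B cell markers, Cd79a and Cd79b, the signalling chains of the B cell receptor, and Ms4a1, the surface protein CD20, lay wholly below wild type, as did 11.9% of all genes. Cd79a was at 1.12, 1.38 and 0.784 CPM in wild type and 0.425, 0.648 and 0.364 CPM in the knockouts (edgeR adjusted p = 0.36), Cd79b at 1.2, 0.875 and 0.799 CPM and 0.226, 0.593 and 0.337 CPM (edgeR adjusted p = 0.381), and Ms4a1 at 1.45, 1.5 and 2.02 CPM and 0.585, 0.662 and 0.526 CPM (edgeR adjusted p = 0.28). Neutrophil markers summed to 1.69 to 3.45 CPM in wild-type and 0.345 to 0.715 CPM in knockout libraries, which did not overlap, with Ly6g at 0 in all 6 libraries. Of the 4 tested neutrophil markers, 3 lay wholly below wild type (11.9% of all genes). DESeq2 passed 1 as lower (1.40% of all genes), and 0 without wild-type library 3 (0.554%). Markers of T and NK cells (4.96 to 11.4 CPM in wild-type and 6.71 to 7.31 CPM in knockout libraries) and of erythroid cells (42.7 to 101 CPM in wild-type and 34.6 to 117 CPM in knockout libraries) overlapped. Pancreatic acinar markers stood at 11.1 to 21.5 CPM in wild-type and 5.83 to 12.5 CPM in knockout libraries, and adipocyte markers at 0 to 0.547 CPM in wild-type and 0 to 0.69 CPM in knockout libraries.

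The unfolded protein response list, the chaperones and sensors of the endoplasmic reticulum, had a median log2 fold change of -0.33 over 24 genes (-0.31 without wild-type library 3). In 12 of the 24 the knockout libraries lay wholly below wild type (11.9% of all autosomal genes) and in 1 wholly above (9.31%). None passed the edgeR threshold, 9 had an unadjusted p under 0.05 as lower (6.93% of all genes) and 1 as higher (5.03%), and DESeq2 passed 3 lower (1.40%) and 1 higher (0.986%), with the same counts without that library.

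Derl3, which helps to retrotranslocate misfolded proteins, had the smallest p, at 8.51, 6.37 and 2.43 CPM in wild type and 0.837, 0.538 and 1.13 CPM in the knockouts (log2 fold change -2.78, edgeR adjusted p = 0.0794). Trib3, a pseudokinase induced by the PERK branch, was at 9.13, 7.57 and 14.2 CPM and 1.48, 3.64 and 3.63 CPM (log2 fold change -1.82, edgeR adjusted p = 0.0922). Hspa5, the main chaperone BiP, was at 1545, 1559 and 1686 CPM and 840.4, 988 and 1260.1 CPM (log2 fold change -0.63, edgeR adjusted p = 0.356). All 3 were lower in each knockout library, and the sizes ranged widely.

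Of the disulfide isomerases, which form and rearrange disulfide bonds, Pdia6 was at 355, 358 and 271 CPM and 220.4, 193 and 200.2 CPM (edgeR adjusted p = 0.239, DESeq2 adjusted p = 0.0353), and Pdia3 was at 675, 581 and 555 CPM and 424, 393 and 395 CPM (edgeR adjusted p = 0.283). Herpud1, a scaffold of the degradation complex, went against the list, at 233, 210.4 and 219.7 CPM in wild type and 272, 757 and 560.1 CPM in the knockouts (log2 fold change 1.26, edgeR adjusted p = 0.19, DESeq2 adjusted p = 0.00892). Knockout library 1 was near wild type for Herpud1, and the other two were far above.

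For the pathways of the deleted factors themselves, no member passed the edgeR threshold at baseline. The NF-kB list had a median of 0.0065 over 24 genes, against -0.02 over all autosomal genes, and of -0.085 without wild-type library 3, with 1 member wholly above wild type (9.31% of all genes) and 1 wholly below (11.9%). With all libraries none had an unadjusted p under 0.05 (6.93% and 5.03% of all genes were lower and higher). Without wild-type library 3, 1 was lower (5.54% of all genes). Nfkbia, the inhibitor that NF-kB induces, was at 19.5, 27.6 and 22.3 CPM and 19.9, 40.9 and 27.2 CPM (edgeR adjusted p = 0.612). The chemokine gene Cxcl1 was at 3.16, 3.18 and 3.09 CPM and 0.691, 0.566 and 1.53 CPM (log2 fold change -1.76, edgeR adjusted p = 0.641) and was the member that lay wholly below.

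The STAT3 and IL-6 signalling list had a median of 0.14 over 22 genes, the same to 2 decimals without wild-type library 3, with 4 members wholly above and 3 wholly below (9.31% and 11.9% of all genes). Pim1, a kinase gene induced by STAT3, was at 22.2, 26.1 and 19.7 CPM in wild type and 7.96, 8.55 and 8.19 CPM in the knockouts (log2 fold change -1.46, SE 0.33, edgeR adjusted p = 0.139, DESeq2 adjusted p = 0.00269, and 0.0143 without that library). Junb, named after its values were seen, was at 20.6, 20.8 and 15.3 CPM and 9.85, 8.33 and 8.25 CPM (edgeR adjusted p = 0.422). Both lay wholly below wild type, but Socs3, the feedback inhibitor most closely tied to STAT3, was at 5.56, 5.03 and 5.69 CPM and 6.05, 5.01 and 7.42 CPM (edgeR adjusted p = 0.931) and overlapped. Cebpb and Socs1 lay wholly above wild type. Cebpb was at 16.2, 26.5 and 26.3 CPM and 40.1, 61.3 and 28.7 CPM (edgeR adjusted p = 0.366). Socs1, under 1 CPM throughout, was at 0.105, 0.219 and 0.347 CPM and 0.611, 0.524 and 0.715 CPM (edgeR adjusted p = 0.307).

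The receptor chains lay wholly above wild type. Il6st, the shared receptor chain gp130, was at 256, 291 and 267 CPM and 368, 393 and 397 CPM (log2 fold change 0.51, edgeR adjusted p = 0.288), and Il6ra at 82.9, 29.1 and 56.5 CPM and 91.1, 149 and 88.5 CPM (edgeR adjusted p = 0.333). Tyk2, a Janus kinase, was at 31.5, 28.9 and 32.6 CPM and 23.1, 22.9 and 22.8 CPM (log2 fold change -0.43, edgeR adjusted p = 0.187). Il6st and Tyk2 passed DESeq2 with all libraries (adjusted p = 0.0461 and 0.0455) and not without wild-type library 3 (0.172 and 0.25).

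The acute phase list, the secreted targets of both factors, had a median of -0.25 over 28 genes (-0.33 without wild-type library 3), with 9 members wholly below wild type (11.9% of all genes) and 1 wholly above (9.31%). None passed edgeR or DESeq2, and 2 had an unadjusted p under 0.05 as lower (6.93% of all genes). Fgl1, a fibrinogen-like hepatokine, was at 65.1, 264 and 344 CPM and 62.8, 49.3 and 60.6 CPM (edgeR adjusted p = 0.418), Apcs, serum amyloid P, at 193, 339 and 478 CPM and 152, 141 and 80.9 CPM (edgeR adjusted p = 0.491), and Saa2, an inducible serum amyloid A, at 2.53, 11.5 and 11.2 CPM and 0.412, 0.773 and 0.567 CPM (edgeR adjusted p = 0.546).

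Saa2 is nearly identical to Saa1, and the division of reads between them is uncertain. In Fgl1, Apcs and Saa2 every knockout library lay below every wild-type library. The knockouts were close together for Fgl1 (SD 7.25 CPM, against 144 CPM in wild type), and less so for Apcs (SD 38.2 against 142 CPM). Lcn2, an iron-trapping lipocalin, was at 4.66, 3.29 and 13.6 CPM and 0.744, 0.842 and 1.63 CPM (edgeR adjusted p = 0.561). Complement genes (17 tested, median 0.053, and -0.017 without wild-type library 3) and coagulation genes (19 tested, 0.03 and -0.05) had no member past edgeR or DESeq2. F5, coagulation factor V, was at 862, 874 and 899 CPM and 1146, 1173 and 1046 CPM (edgeR adjusted p = 0.485), and Serpinf2, the inhibitor of plasmin, at 910.0, 898 and 712 CPM and 692, 695 and 562 CPM (edgeR adjusted p = 0.424).

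The immediate early and EGF receptor list had a median of -0.18 over 33 genes (-0.30 without wild-type library 3), with Errfi1 as its only call in edgeR and DESeq2. The shares of all genes called as higher were 0.0433% in edgeR and 0.986% in DESeq2. Of the list's members 2 lay wholly above (9.31% of all genes) and 6 wholly below wild type (11.9%). Ligands of the receptor include Btc, betacellulin, at 4.5, 3.58 and 3.15 CPM and 2.98, 1.35 and 1.35 CPM (edgeR adjusted p = 0.335), and Hbegf, at 1.34, 1.08 and 1.55 CPM and 0.465, 0.883 and 0.85 CPM (edgeR adjusted p = 0.35). The coreceptor gene Erbb3 was at 159.7, 205 and 205 CPM and 131, 156 and 116 CPM (edgeR adjusted p = 0.334).

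In glucose metabolism 20 of 28 genes had a positive log2 fold change, against 47.3% of all autosomal genes (median 0.21, and 0.19 without wild-type library 3), 6 lay wholly above wild type and 1 wholly below (9.31% and 11.9% of all genes). Beside Ppp1r3b, DESeq2 passed Foxo1 (adjusted p = 0.0104, and 0.0462 without wild-type library 3) and, only with that library, Gys2 (0.0495 and 0.148). These were 3 of the 28 as higher (0.986% of all genes), and 2 without wild-type library 3 (0.547%). Foxo1, the factor that drives gluconeogenic genes in fasting, was at 47.5, 41.8 and 46.8 CPM and 77.8, 88 and 65.8 CPM (log2 fold change 0.77, edgeR adjusted p = 0.15). Gys2, liver glycogen synthase, was at 90.2, 111 and 103 CPM and 146, 217 and 161 CPM (log2 fold change 0.79, edgeR adjusted p = 0.244). Pck1, the rate-limiting enzyme of gluconeogenesis, was at 1246, 1499.8 and 1924 CPM and 1155, 3301 and 2939.5 CPM and overlapped (edgeR adjusted p = 0.491).

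The lipogenesis list had 26 tested genes and a median of 0.24 (0.11 without wild-type library 3), with 2 members wholly above (9.31% of all genes) and 2 wholly below (11.9%). Elovl3, an elongase of very long chain fatty acids, had the highest positive fold change of the list, at 4.8, 8.41 and 4.65 CPM in wild type and 284, 60.03 and 29.1 CPM in the knockouts (log2 fold change 4.38, SE 1.40, edgeR adjusted p = 0.308). Its knockout libraries spread widely among themselves, and without knockout library 1 the log2 fold change was 2.90. Elovl3, which is also on the male-biased list, passed DESeq2 with all libraries (adjusted p = 0.0162) and not without wild-type library 3 (0.112). Lpl, lipoprotein lipase, was at 139, 79.4 and 83.3 CPM and 44.8, 23.2 and 41.4 CPM (log2 fold change -1.46, edgeR adjusted p = 0.116, DESeq2 adjusted p = 0.000896, and 0.00415 without wild-type library 3). Lpl is also on the female-biased list.

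Scd1, the stearoyl-CoA desaturase, was at 3029, 8536 and 3984 CPM and 17700.2, 8896 and 6809 CPM (edgeR adjusted p = 0.356). Acss2 and Me1 supply acetyl-CoA and NADPH. For Scd1, Acss2 and Me1 alike, knockout library 1 was the highest of the 6 and wild-type library 2 lay above knockout library 3. Acss2 was at 110.2, 168 and 108 CPM and 423, 216 and 167 CPM (edgeR adjusted p = 0.29), and Me1 at 111, 207 and 154 CPM and 544, 268 and 166 CPM (edgeR adjusted p = 0.353).

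Cholesterol synthesis genes had a median of -0.23 over 19 genes (-0.38 without wild-type library 3), 14 of them negative with all libraries and 18 without that library. Of all 13853 autosomal genes, 7296 were negative with all libraries and 7700 without it. In 4 of the 19 the knockout libraries lay wholly below wild type (11.9% of all genes), and in 0 wholly above (9.31%). Mvd, mevalonate decarboxylase, was at 15.4, 39.2 and 16.1 CPM and 5.49, 9.62 and 12.5 CPM (log2 fold change -1.36, edgeR adjusted p = 0.252) and was the list's call in DESeq2 (adjusted p = 0.0276, and 0.0298 without wild-type library 3). Of all genes, 1.40% passed DESeq2 as lower, and 0.554% without that library. Insig1, which retains the sterol sensor in the endoplasmic reticulum, was at 327, 742 and 405 CPM and 198, 274 and 285 CPM (edgeR adjusted p = 0.244). Wild-type library 2 was the highest of the 6 for both.

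Fatty acid oxidation genes had a median of 0.12 over 27 genes (0.14 without wild-type library 3), with 10 wholly above wild type (9.31% of all genes), 1 wholly below (11.9%) and no call in edgeR or DESeq2. Bdh1, an enzyme of ketone body metabolism, was the member wholly below, at 228, 259.9 and 263 CPM and 159, 161 and 136 CPM (edgeR adjusted p = 0.477). Angptl4, a secreted inhibitor of lipoprotein lipase induced in fasting, was at 14.9, 48 and 52 CPM and 84.2, 133 and 59.2 CPM (edgeR adjusted p = 0.396).

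In bile acid synthesis and transport the median was 0.20 over 33 genes (0.17 without wild-type library 3), with 7 members wholly above wild type (9.31% of all genes), 1 wholly below (11.9%) and none past edgeR or DESeq2. Cyp7b1, the oxysterol hydroxylase of the alternative pathway, was at 102, 154 and 63.9 CPM in wild type and 317, 303 and 176 CPM in the knockouts (log2 fold change 1.31, SE 0.47, edgeR adjusted p = 0.334, DESeq2 adjusted p = 0.0509). Wild-type library 3 was its lowest value, and without it the log2 fold change was 1.05 (DESeq2 adjusted p = 0.268). Cyp7b1 is also on the male-biased list. Cyp27a1, which opens that pathway, was at 351, 374 and 249.8 CPM and 460.4, 529.5 and 395 CPM (edgeR adjusted p = 0.556).

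The enzymes of the classical pathway varied more within the knockouts than between the genotypes. Cyp7a1, the rate-limiting cholesterol 7α-hydroxylase, was at 302, 86.9 and 182 CPM and 318, 402 and 51.4 CPM (edgeR adjusted p = 0.918). Cyp8b1, the 12α-hydroxylase that directs synthesis to cholic acid, was at 120.5, 101 and 106 CPM and 215, 222 and 13.8 CPM (edgeR adjusted p = 0.865). Knockout library 3 was the lowest of the 6 for both, well under the other two knockouts. The sterol exporter gene Abcg8 was at 31.9, 38.8 and 43.7 CPM and 76.9, 58.3 and 56.1 CPM (edgeR adjusted p = 0.372), and its partner Abcg5 at 31.1, 33.9 and 45.5 CPM and 49.9, 49.7 and 54.1 CPM (edgeR adjusted p = 0.51).

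Genes with a known female bias in mouse liver depended most on wild-type library 3. Their median log2 fold change was -0.86 over 23 genes with all libraries and -0.073 without that library. Sult3a1, a sulfotransferase found mainly in females, was at 6.1, 0.615 and 2060.3 CPM in wild type and 0.226, 0.29 and 15.1 CPM in the knockouts, and its log2 fold change turned from -7.04 to 0.63. Male-biased genes had a median of 0.35 over 18 genes and 0.19 without it.

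Some female-biased genes kept their order among the remaining libraries. Hao2, a peroxisomal hydroxyacid oxidase, was at 19.8, 21.6 and 137 CPM and 0.146, 0.0966 and 2.15 CPM (log2 fold change -6.22, and -4.70 without wild-type library 3, edgeR adjusted p = 0.184 and 0.302). Slc22a26, an organic anion transporter with close paralogs beside it, was at 22.6, 74.8 and 227 CPM and 1.9, 3.19 and 8.64 CPM (log2 fold change -4.56 and -3.41, edgeR adjusted p = 0.135 and 0.227). Nat8, an acetyltransferase of the male-biased list, was at 0.552, 0.67 and 1.55 CPM and 11.6, 11.9 and 1.54 CPM (edgeR adjusted p = 0.244), with knockout library 3 at the level of wild-type library 3.

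**Figure D4:**
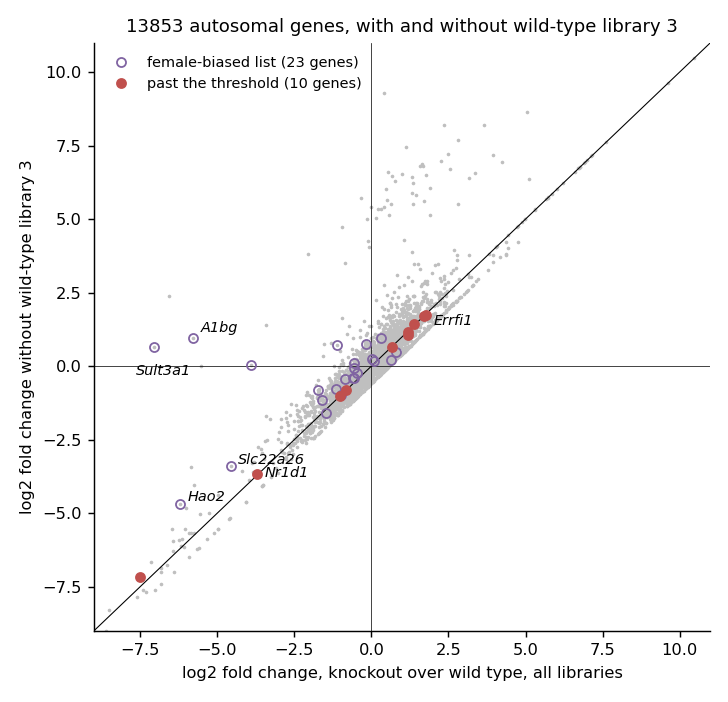
Log2 fold change (knockout over wild type) of the 13853 autosomal genes with all libraries (x) and without wild-type library 3 (y), with the line of equality. The 10 genes past the threshold (red) lie near the line, while Sult3a1 and A1bg of the 23 female-biased genes (rings) go from strongly negative to positive values.

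The P450 list (24 genes, median -0.023, and 0.10 without wild-type library 3) and the conjugation list (22 genes, 0.052 and 0.23) had no edgeR call. Nr1i3, the nuclear receptor CAR that governs xenobiotic genes, was the call of the P450 list in DESeq2, at 114, 72.9 and 108 CPM and 127, 189 and 167 CPM (log2 fold change 0.71, edgeR adjusted p = 0.199, DESeq2 adjusted p = 0.0238, and 0.0447 without that library). Of all genes, 0.986% passed DESeq2 as higher, and 0.547% without that library. Gsta3, a glutathione transferase, was at 962, 916 and 819 CPM and 1678, 1773 and 1348 CPM (edgeR adjusted p = 0.365). Por, the reductase that serves all microsomal P450 enzymes, was at 301, 236 and 246 CPM and 275, 828 and 458 CPM and overlapped through knockout library 1.

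In iron and haem metabolism (24 genes, median 0.037, and -0.018 without wild-type library 3), Alas1 was joined by Tfrc and Blvrb in DESeq2. These were 2 members as higher (0.986% of all genes) and 1 as lower (1.40%). The counts were the same without that library (0.547% and 0.554% of all genes). Wholly above wild type lay 3 members (9.31% of all genes), and wholly below lay 2 (11.9%). Tfrc, the transferrin receptor, was at 190.2, 117 and 161 CPM in wild type and 41.6, 44.6 and 74.7 CPM in the knockouts (log2 fold change -1.54, edgeR adjusted p = 0.115, DESeq2 adjusted p = 0.000765, and 0.0153 without wild-type library 3). Blvrb, biliverdin reductase B, was at 46, 47.8 and 46.5 CPM and 73.4, 73.4 and 64.1 CPM (log2 fold change 0.59, edgeR adjusted p = 0.139). The groups did not overlap in either gene, and the directions were opposite.

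One-carbon genes (24, median 0.091, and -0.0084 without wild-type library 3) and amino acid and urea cycle genes (28, 0.076 and -0.00082) had no edgeR call. Car2, carbonic anhydrase 2, was at 18.4, 12.3 and 16.9 CPM and 7.32, 9.99 and 5.63 CPM (log2 fold change -1.05, edgeR adjusted p = 0.118, DESeq2 adjusted p = 0.00442, and 0.0562 without wild-type library 3). Cbs, the first enzyme of transsulfuration, was at 489, 669 and 491 CPM and 351, 236 and 416 CPM (edgeR adjusted p = 0.35). Prodh, which opens proline breakdown, was at 137, 96.3 and 86.8 CPM and 206, 238 and 193 CPM (log2 fold change 0.99, edgeR adjusted p = 0.275).

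The interferon response list had a median of -0.13 over 28 genes (-0.094 without wild-type library 3), with 8 wholly below wild type (11.9% of all genes) and 1 wholly above (9.31%). Usp18, the protease that removes ISG15, was at 22.9, 27.2 and 28.8 CPM and 13.8, 8.72 and 14.5 CPM (log2 fold change -1.09, edgeR adjusted p = 0.135, DESeq2 adjusted p = 0.00704, and 0.0722 without wild-type library 3). Isg15, the ubiquitin-like modifier itself, was at 8.87, 18.6 and 22.6 CPM and 5.45, 4.37 and 6.11 CPM (log2 fold change -1.65, edgeR adjusted p = 0.289, DESeq2 adjusted p = 0.0168, and 0.182 without that library). Ifit1, of the same cluster as 2010002M12Rik, was at 12.8, 24.4 and 27.1 CPM and 9.78, 6.59 and 11.3 CPM (edgeR adjusted p = 0.391). Wild-type library 1 was the lowest of the wild-type libraries for all 3.

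Growth hormone and IGF genes had a median of 0.026 over 20 genes (0.068 without wild-type library 3). Igfbp3, the main carrier of circulating IGF, was the list's call in DESeq2, at 32.6, 26.1 and 30.05 CPM and 16.4, 15.8 and 11.4 CPM (log2 fold change -1.02, edgeR adjusted p = 0.142, DESeq2 adjusted p = 0.0115, and 0.0778 without wild-type library 3). Of all genes, 1.40% passed DESeq2 as lower, and 0.554% without wild-type library 3. Cish, a feedback inhibitor that follows growth hormone pulses, was at 1.13, 5.62 and 7.63 CPM and 34.4, 4.76 and 4.54 CPM. Knockout library 1 alone set its log2 fold change of 1.61, which was -0.04 without that library.

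Beyond the lists, the genes with the largest differences were taken among those with an unadjusted p under 0.01 with and without wild-type library 3, a mean of at least 1 CPM and groups that did not overlap. Of 239 such genes 85 were higher and 154 lower. Mfsd2a, a transporter of lysophosphatidylcholine that rises in fasting liver, was at 8.93, 5.81 and 28.9 CPM in wild type and 45.1, 117 and 139 CPM in the knockouts (log2 fold change 2.79, SE 0.84, edgeR adjusted p = 0.279). Wild-type library 3 was the highest wild type, and without it the log2 fold change was 3.77 (DESeq2 adjusted p = 0.00152).

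AA986860 was at 1.76, 1.12 and 1.95 CPM and 4.93, 9.13 and 9.77 CPM (log2 fold change 2.30, edgeR adjusted p = 0.074), Pclo, a presynaptic scaffold, at 0.0789, 0.465 and 0.513 CPM and 2.09, 1.46 and 2.32 CPM (edgeR adjusted p = 0.252), and Trhde, an ectopeptidase, at 1.03, 1.3 and 0.603 CPM and 5.34, 4.3 and 2.08 CPM (edgeR adjusted p = 0.161). The kinesin gene Kif3c was at 1.45, 1.04 and 1.19 CPM and 2.67, 3.84 and 4.66 CPM, the kinase gene Plk5 at 0.552, 0.67 and 0.664 CPM and 1.61, 2.75 and 1.77 CPM, and E230001N04Rik at 0.355, 0.191 and 0.347 CPM and 0.479, 3.32 and 2.63 CPM. Amn1 was better expressed, at 15.1, 26.6 and 21.7 CPM and 63.8, 80.2 and 64.7 CPM (log2 fold change 1.72, edgeR adjusted p = 0.0922).

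Of the genes at the lower end, Hapln1, a link protein of hyaluronan matrix, was at 12, 3.72 and 3.18 CPM and 0.877, 0.579 and 1.31 CPM (log2 fold change -2.77, edgeR adjusted p = 0.252, and -1.90 on the log2 scale without wild-type library 1). Sdk1, an adhesion molecule, was at 2.7, 1.52 and 2.49 CPM and 0.319, 0.497 and 0.189 CPM (log2 fold change -2.73, edgeR adjusted p = 0.106). With Hao2, Slc22a26, Derl3, Nr1d1 and the mitotic genes Ccnb1, Hmmr, Cdc20 and Cenpf, these made up the 10 most negative fold changes under that rule. Of these 10, Nr1d1 alone passed the edgeR threshold. All 10 passed DESeq2 with all libraries. Without wild-type library 3 all but Hao2 and Hapln1 passed it (DESeq2 adjusted p = 0.147 and 0.0788).

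**Figure D5:**
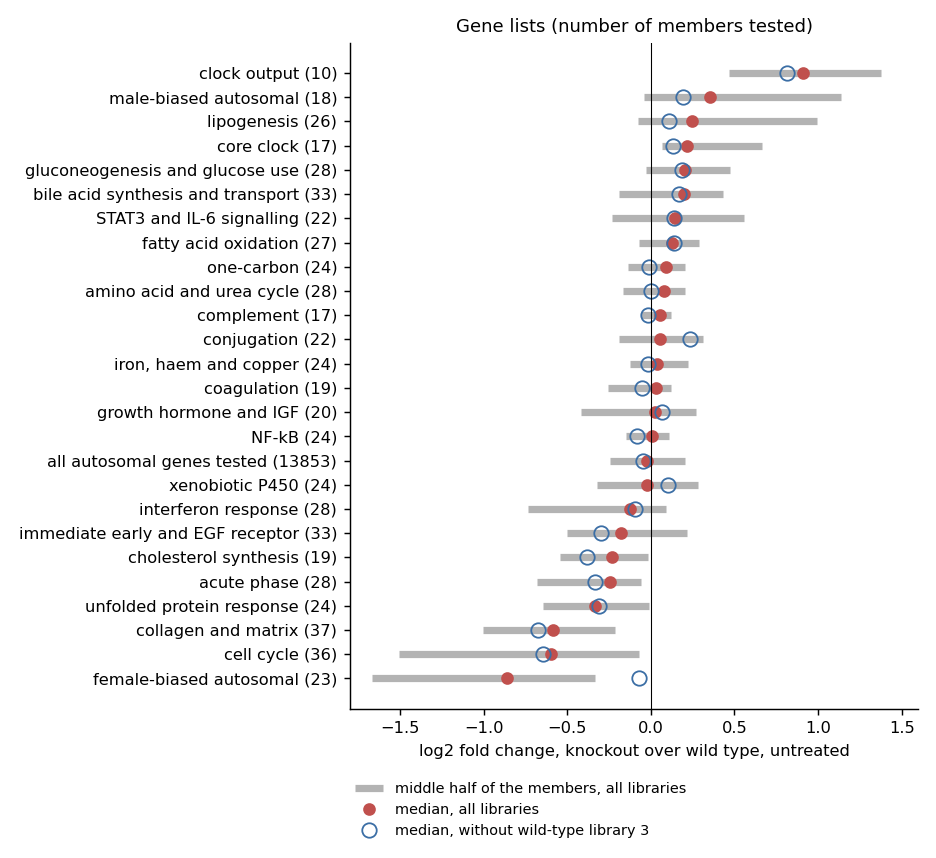
Median log2 fold change (knockout over wild type, untreated) of each gene list and of all autosomal genes tested, with all libraries (filled) and without wild-type library 3 (open), and bars for the interquartile range of the members. The cell cycle (-0.60 and -0.64) and matrix (-0.58 and -0.67) medians are the lowest without wild-type library 3, and the female-biased median goes from -0.86 to -0.07.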

How the data were processed

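Liver RNA-seq libraries of 12 mice in 4 groups of 3 were analysed, of which the 6 untreated ones are compared here. The values are estimated counts per gene that the authors made with fastp, HISAT2 (mm9) and StringTie and deposited without normalization. The annotation behind the gene rows is not given in the sources used here. Rows were placed on chromosomes by gene ID with GENCODE vM1, and promoter sequences came from RefSeq (GRCm38.p6).

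Genes were filtered with filterByExpr (17652 kept), scaled by TMM, and tested in edgeR 4.0.16 (R 4.3.3) by a robust quasi-likelihood fit of all 12 libraries, which share 1 estimate of the spread, with Benjamini-Hochberg adjustment over all genes kept. DESeq2 1.42.0 and limma 3.58.1 served as alternatives. An adjusted p that DESeq2 left undefined was kept undefined. The fits were run on simulated counts in which every gene had the same spread between libraries. These data are less regular, so that run does not measure the accuracy of the fits here. Counts per untreated library lay between 65879529 and 76526853. No 2 libraries held the same values.

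Named genes were Rela and Stat3, all genes past the threshold, the 10 largest differences in each direction at an unadjusted p under 0.01, and in each list up to 6 members with the smallest p and those whose role the list turns on. Col3a1, Col1a1, Usp2 and Junb were added after their values were seen. The members and lists were chosen with earlier results of these data known. Columns of treated mice entered the fit and were not compared. A few genes are not reported here.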

Additional observations from a re-analysis of the deposited data

Results flagged for a closer look

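Xist, the X-linked RNA that coats the inactive X chromosome in female cells, lies outside the autosomal comparison. Its level was 1143 CPM (1.14e+03 to 3 digits) in wild-type library 3 and 29 CPM in knockout library 3, against 0.566 and 0.191 CPM in wild-type libraries 1 and 2 and 0.465 and 0.235 CPM in knockout libraries 1 and 2. The 4 Y-linked transcripts Ddx3y, Uty, Kdm5d and Eif2s3y summed to 30.1 CPM in wild-type library 3 and 175 CPM in knockout library 3, against 186 to 241 CPM in the other 4. Both kinds of transcript were thus read in these 2 libraries. Their part in the autosomal differences was not tested, and values without wild-type library 3 stand beside the results.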

How the results depend on the processing

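The 10 autosomal genes past the threshold became 290 with DESeq2, 157 with DESeq2 without wild-type library 3, 82 with limma-voom and quality weights and 53 with only the untreated libraries in the fit. The count was between 8 and 15 with DESeq2 size factors, other filters, a size threshold of 1 on the log2 scale, and only the untreated libraries without wild-type library 3, where 3 of the 15 were among the 10. The count with the replicate block was 27. The labels share replicate numbers and state no pairing of mice. Correlations of same-numbered deviations from the group means (0.0962, 0.0216 and 0.168) rest on 3 libraries per group. They cannot show whether these mice were paired. Leaving out 1 library at a time gave 2 to 8 genes, with 5 without wild-type library 1, 2 without wild-type library 3 and 3 without knockout library 2, and the cause was not tested beyond the smaller number of libraries.

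Nr1d1 and Sparc passed in 15 of 15 alternative settings, Ak4 in 13, Cd207 in 12, Caln1 in 11, Errfi1 in 10, Pgm3 in 9, Ppp1r3b in 8, and Plcb1 in 6. 2010002M12Rik, which the filter of 10 counts in every library removes, passed in 6 of the others. Of 178 named genes 174 kept their sign in every setting run. The log2 fold change of Sult3a1 was 0.68 with only the untreated libraries without wild-type library 3, 0.70 with DESeq2 without it, and between -11.38 and 0.63 on leaving out 1 library at a time. On leaving out 1 library, Rela ranged from -0.12 to 0.086, Cish from -0.042 to 2.11 and Cyp7a1 from -0.043 to 0.94. The medians of 9 of 25 lists, all close to 0, changed sign in some setting. The gene table holds no exon counts, and 3 mice per group give little power for genes that vary between mice.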
